A study of Mus musculus with 3143 samples.

Results

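T cells of the mouse glomerular fraction are described here as 122 of 3143 cells, of which 38 were from IgAN and 84 from Control. A cell was taken as a T cell where the CD3 genes Cd3e, Cd3d and Cd3g together reached 150 CPM (reads of a gene per 1000000 reads of that cell), Ncr1 stayed below 50 CPM and Cd79a plus Cd79b stayed below 300 CPM. Ncr1 encodes a receptor of natural killer (NK) cells, and Cd79a and Cd79b encode the signalling chains of the B cell receptor. The cells were thus chosen by the measured values of these 6 genes, so the levels of these genes are given only as a description.

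The study compared glomeruli in a mouse model of IgA nephropathy (IgAN), a kidney disease in which IgA is deposited in the glomerulus, with Control. All cells were from adult C57BL/6 mice. The labels give the treatment as IgAN for 1798 cells and Control for 1345 cells, and do not say how the disease was brought about. The glomerular fraction was digested with collagenase, pronase and DNase, cells that took up a viability dye were sorted into 384-well plates, and full-length polyadenylated cDNA was read by the SmartSeq2 method, which counts reads and not molecules. The sort used no immune marker, so the T cells are those that the fraction contained, whether from glomerular capillaries or from tissue carried along with them.

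No label names the animal a cell came from, so each treatment is 1 sample and no test between treatments was made. The cells came from 10 plates, 6 of IgAN (plates 313, 315, 316, 318, 322 and 325) and 4 of Control (plates 314, 317, 321 and 326), and no plate held both. Plate and treatment cannot be told apart. Intervals given below are exact 95% intervals that cover counting error only, binomial (Clopper-Pearson) for shares of cells and Poisson for summed reads, and the range over plates is given beside them. Reads from PCR without molecular identifiers are not independent molecules.

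T cells recognise peptides on MHC molecules through a receptor of an alpha and a beta chain, or, in a smaller lineage, of a gamma and a delta chain. The receptor signals through the CD3 chains and Cd247, and the co-receptors CD4 and CD8 divide helper from cytotoxic cells. Cells that have not met antigen, and central memory cells, express the lymph node homing receptor Ccr7 with the transcription factors Tcf7 and Lef1. Effector and tissue-resident cells lose much of that programme and express cytotoxic, cytokine and tissue-retention genes. T cells are found in the kidney in health and accumulate in many forms of nephritis.

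Each alpha-beta T cell joins 1 of many variable segments to a constant gene, and the segment used is a natural label of a cell. The 3 beta segments called in most of the cells are shown with the ends of 2 gamma segments found in rare cells, since they carry the receptor results below. Each line gives the last 90 bases of the segment's coding exon on GRCm38 (GENCODE vM21 transcripts), and capitals mark the last in-frame cysteine codon after an aromatic codon to the exon's end, where the hypervariable CDR3 loop opens.
Trbv3, chr6:41048739-41048828, plus strand: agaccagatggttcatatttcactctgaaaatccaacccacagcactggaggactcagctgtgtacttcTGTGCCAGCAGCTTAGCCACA
Trbv2, chr6:41047906-41047995, plus strand: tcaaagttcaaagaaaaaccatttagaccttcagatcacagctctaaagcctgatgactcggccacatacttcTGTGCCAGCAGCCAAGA
Trbv1, chr6:40891796-40891885, plus strand: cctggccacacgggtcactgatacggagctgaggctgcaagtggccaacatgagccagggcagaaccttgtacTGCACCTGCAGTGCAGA
Tcrg-V4, chr13:19185417-19185506, plus strand: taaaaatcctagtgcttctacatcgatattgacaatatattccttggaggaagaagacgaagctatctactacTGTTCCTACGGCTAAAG
Tcrg-V6, chr13:19190840-19190929, plus strand: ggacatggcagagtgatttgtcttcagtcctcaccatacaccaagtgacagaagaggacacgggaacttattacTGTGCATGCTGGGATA
The first coding exons of the 2 beta constant genes, of 375 bases each, differ only at C260A (position counted from 1 at the exon's first base, Trbc1 first). They are 99.7% identical, and the longest identical stretch is 259 bases. The 40 bases around that position are shown because they set how well reads can be split between the genes, with the differing base in capitals.
Trbc1, chr6:41538457-41538496, plus strand: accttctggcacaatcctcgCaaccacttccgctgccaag
Trbc2, chr6:41546969-41547008, plus strand: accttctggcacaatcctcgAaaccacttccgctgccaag
Values of Trbc1 and Trbc2 apart from each other are therefore uncertain.

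The genes of the gate lie together on chromosome 9, Cd3g at 44969572 to 44980431 on the minus strand, Cd3d at 44981786 to 44987339 on the plus strand and Cd3e at 44998740 to 45009627 on the minus strand. The starts of Cd3g and Cd3d are 1355 bases apart and the genes point away from each other. The 250 bases before each RefSeq start are shown because the 3 genes chose the cells. For Cd3e that start lies inside the GENCODE gene, and the stretch covers 16 of its bases. Sequences are from RefSeq (GRCm38.p6), each written in the direction of the gene, with CACCTG, an E-box, in capitals.
Cd3g, chr9:44980432-44980681, minus strand: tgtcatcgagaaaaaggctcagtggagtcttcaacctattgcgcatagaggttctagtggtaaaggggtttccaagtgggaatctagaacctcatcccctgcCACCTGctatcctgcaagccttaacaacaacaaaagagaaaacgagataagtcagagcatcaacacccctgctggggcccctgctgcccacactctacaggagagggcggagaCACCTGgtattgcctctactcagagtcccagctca
Cd3d, chr9:44981536-44981785, plus strand: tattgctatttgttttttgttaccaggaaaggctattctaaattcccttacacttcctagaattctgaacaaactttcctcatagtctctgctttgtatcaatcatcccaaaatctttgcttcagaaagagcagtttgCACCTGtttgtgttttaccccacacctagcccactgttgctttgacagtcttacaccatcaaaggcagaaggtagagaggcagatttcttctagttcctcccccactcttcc
Cd3e, chr9:45009612-45009861, minus strand: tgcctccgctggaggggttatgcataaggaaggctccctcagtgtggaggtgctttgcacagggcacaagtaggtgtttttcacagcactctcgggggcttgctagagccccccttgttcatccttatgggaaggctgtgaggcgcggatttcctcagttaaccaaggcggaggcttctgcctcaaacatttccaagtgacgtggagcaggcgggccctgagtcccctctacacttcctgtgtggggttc
On either strand, CACCTG was found 2 times before Cd3g, 1 time before Cd3d and not before Cd3e. CTTTGA, the core of the sites bound by Tcf7 and Lef1, was found 2 times before Cd3d and not before the others, and TATAAA was in none of them. Of 32851 promoters of that length, 17.2% held CACCTG, 13.8% CTTTGA and 12.4% TATAAA on either strand. A match is a description of letters and not a site.

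The gate was read against the cells near its edge. The sum of Cd3e, Cd3d and Cd3g had a median of 3066 CPM in the T cells, and the lowest members were at 151, 207, 213 and 229 CPM. The highest cells below the limit were at 138, 96.6 and 96.3 CPM, 12 cells lay between 75 and 150 CPM, and 1222 cells outside the gate held a read of a CD3 gene. In all, 149 cells reached the limit, of which 23 were set aside for Ncr1 and 4 for Cd79a and Cd79b. Reads of all 3 CD3 genes were found in 101 of the 122 cells, of 2 in 13 and of 1 in 8. Per kilobase of exon the T cells held 436 CPM of Cd3d, 328 of Cd3e and 289 of Cd3g, a scale that allows genes to be compared.

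The T cells were sequenced to between 52914 and 662906 reads, with a median of 208100 in IgAN and 191440 in Control. A median of 4844 genes had a read in an IgAN T cell and 4299 in a Control T cell, and mitochondrial reads were 1.68% and 1.92%. Summed over cells, IgAN was represented by 9447092 reads and Control by 18149590. Wells next to each other held near-identical expression on plates 325 and 315: 18.6% and 6.93% of adjacent pairs of wells correlated at 0.8 or more over genes, against 0% on each of the other 8 plates. Among T cells this linked H22 with H23, O15 with O16 and M19, M20 and N20 of plate 325 (r from 0.69 to 0.87) and A12 with B13 of plate 315 (r = 0.54), whereas no other adjacent pair of T cells passed 0.43. Keeping 1 well of each linked set left 117 T cells, 33 of them from IgAN.

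Receptor genes, which the gate did not read, were present in most of the cells. Trac, the alpha constant gene, reached 20 CPM in 107 of 122 T cells (87.7%), against 6.74% of 89 NK cells, 1.18% of 169 B cells and 1.12% of the 2763 other cells. Trac at 20 CPM, a called Trbv gene or gamma constant genes at a sum of 20 CPM were found in 112 T cells, and 10 met none of these limits. Tcf7, a transcription factor of T cell identity, reached 20 CPM in 74.6% of T cells and 5.62% of NK cells. Il7r, the survival receptor for interleukin 7, did so in 56.6% of T cells, none of 89 NK cells (an exact upper bound of 4.06%) and 6.51% of B cells. Cd8b1 was found in 44.3% of T cells and no NK cell, and Cd5, a receptor that dampens receptor signalling, in 54.9% and no NK cell. Lck, the kinase that phosphorylates CD3, was shared, at 82.8% of T cells and 73.0% of NK cells. Trbc1 was found in 65.2% of NK cells and 54.1% of T cells, and Trbc2 was found in 92.6% of T cells and 52.8% of NK cells. The beta constant genes alone therefore did not mark T cells here, while Trac did.

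The 10 cells below these receptor limits were of a few kinds. Wells M19, M20 and N20 of plate 325 held Cd3g but no read of Cd3e or Cd3d, with 1393 to 2380 CPM of the granule protease Gzma and 339 to 630 CPM of the NK receptor Klrb1c, and they form 1 linked set. They held Trdc, the delta constant gene, at 75.3 to 187 CPM and Trbc1 at 245 to 428 CPM. Another 5 cells, all Control (4 on plate 321 and 1 on plate 326), held markers of other cell types at a sum of 24712 to 40955 CPM and the signalling adaptor Tyrobp at 1414 to 3099 CPM. The other 2 were A22 of plate 318, where endothelial markers summed to 13947 CPM, and A24 of plate 322, which held Cd3d with Tyrobp at 1273 CPM, Trac at 13.0 CPM and a called Trav13-2. A narrowed set of 109 cells (30 IgAN and 79 Control), that met a receptor limit, with 1 well of each linked set, was used as a check after the data had been seen.

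T cells made up a smaller share of cells in IgAN than in Control. They were 38 of 1798 cells in IgAN, 2.11% (1.5 to 2.89), and 84 of 1345 in Control, 6.25% (5.01 to 7.67), a ratio of 2.96. On the IgAN plates the share was 2.45% (313), 1.02% (315), 0.888% (316), 1.66% (318), 3.79% (322) and 3.42% (325). On the Control plates it was 5.73% (314), 3.00% (317), 11.7% (321) and 5.21% (326). The plates of the treatments overlapped, since Control plate 317 lay below IgAN plates 322 and 325, and without plate 321, which held 35 of the 84 Control T cells, the Control share was 4.68%. Among cells with Ptprc, the common leukocyte gene, T cells were 7.17% in IgAN and 19.3% in Control, again with overlapping plates. B cells differed in the same direction (2.45% and 9.29%), with plates that did not overlap, and NK cells in the other (3.23% and 2.30%), with overlapping plates. T cells that met a receptor limit (described above) were 1.84% in IgAN and 5.87% in Control. A share of cells does not give a number of T cells per glomerulus, which was not measured.

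**Figure D1:**
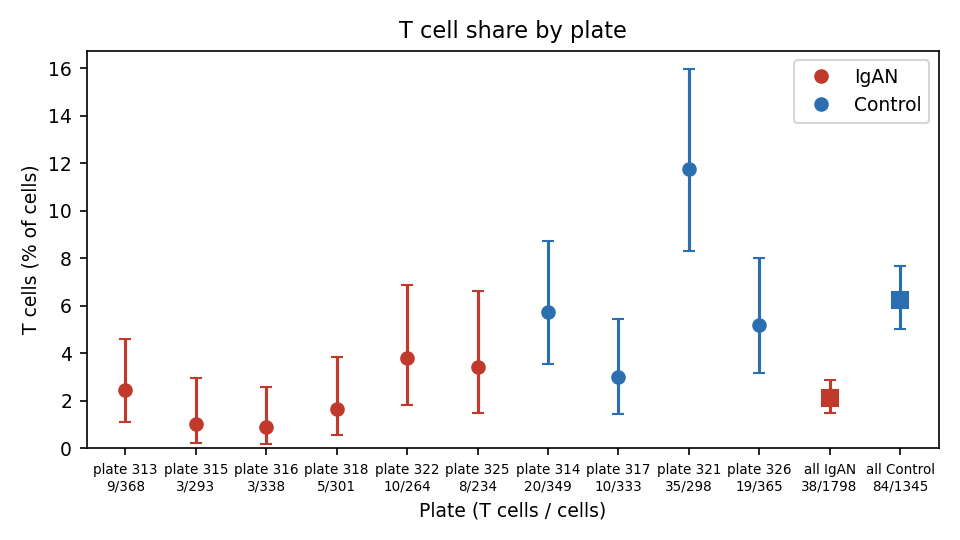
T cells as a percentage of all cells on each plate (circles) and in each treatment (squares), with exact binomial 95% intervals and the counts of T cells and cells under each point. The IgAN plates lie between 0.888% and 3.79% and the Control plates between 3.00% and 11.7%, with Control plate 317 inside the IgAN range.

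CD8 cells outnumbered CD4 cells in the T cells as a whole, but not without plate 321, where 32 CD8 and 33 CD4 cells remained. With 20 CPM as the limit, 50 cells (41.0%) held Cd8a or Cd8b1 without Cd4, 37 (30.3%) held Cd4 without CD8 genes, 4 held both and 31 neither. In IgAN 13 of 38 cells were CD8 (34.2%, 19.6 to 51.4) and 12 were CD4 (31.6%, 17.5 to 48.7). In Control 37 of 84 were CD8 (44.0%, 33.2 to 55.3) and 25 were CD4 (29.8%, 20.3 to 40.7). Control plate 326 stood apart, with 13 CD4 cells and 1 CD8 cell among 19, whereas plate 321 held 4 CD4 and 18 CD8 cells among 35. Without plate 326 the Control shares were 55.4% CD8 and 18.5% CD4, and without plate 321 CD4 cells were 42.9%.

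**Figure D2:**
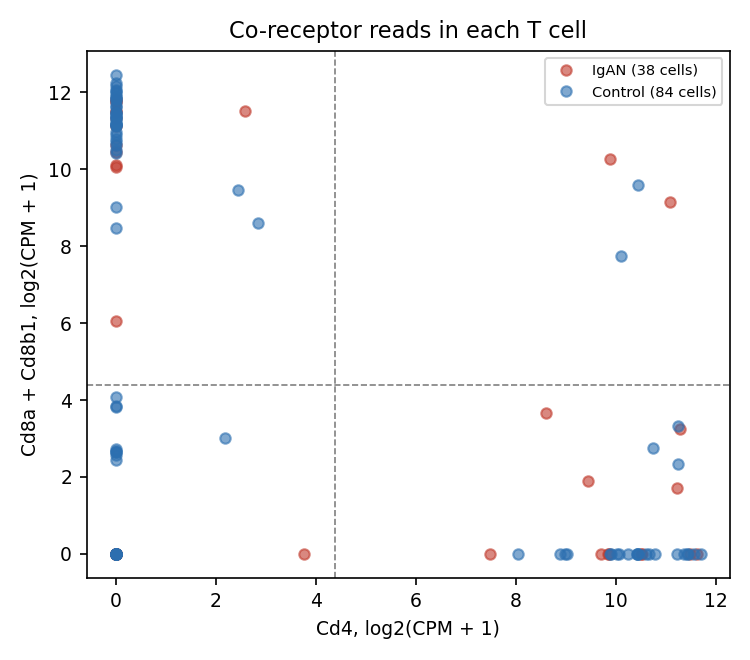
Cd4 (x axis) against Cd8a plus Cd8b1 (y axis) in each of the 122 T cells, both as log2(CPM + 1), IgAN in red and Control in blue, with dashed lines at 20 CPM. Cells gather along the axes, and 4 cells pass both limits.

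The subsets differed in the genes that define their function, which the co-receptor reads did not use. Summed over cells of both treatments, 9377 genes were measured, and 1623 (17.3%) were at least 2-fold higher in CD8 than in CD4 cells in the sums with the same sign in each treatment, and 1094 (11.7%) at least 2-fold lower. Of 27 measured effector genes 19 were higher in CD8 cells, with a median log2 difference of 2.81 beside 0.08 for all measured genes. Of 13 measured helper and regulatory genes 8 were lower in CD8 cells and none was higher, with a median of -1.74. Most effector genes were thus on the CD8 side and most helper genes on the CD4 side. In Control, 13 of 25 CD4 cells but 1 of 37 CD8 cells were on plate 326, and plates were not compared. Subset and plate are therefore in part confounded, and the part of plate in these differences was not tested.

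Among the effector genes, the granule protein Nkg7 was at 1079 CPM in CD8 cells and 153 CPM in CD4 cells. The chemokine Ccl5 was at 613 and 46.6 CPM, and Ctsw, a protease of cytotoxic cells, at 766 and 42.4 CPM. The transcription factors Eomes (52.4 and 0.379 CPM) and Tbx21 (178 and 0.505 CPM), which direct cytotoxic differentiation, were at most a trace in CD4 cells. Klrg1, an inhibitory receptor of differentiated cells, was the only effector gene at least 2-fold lower in CD8 cells, at 9.15 CPM in CD8 and 184 CPM in CD4 cells. Among CD4 cells it reached 20 CPM in 2 of 12 from IgAN and 1 of 25 from Control. The granule protease Gzmb (107 and 114 CPM), Tnf, Fasl and Prdm1 also had lower values in CD8 cells, by less than 2-fold. On the helper side, Cd40lg, the signal by which T cells license B cells, had no read in CD8 cells and 182 CPM in CD4 cells. Foxp3, the regulator of regulatory T cells, was at 13.8 and 428 CPM, the costimulatory receptor Tnfrsf4 at 18.0 and 525 CPM, and Zbtb7b, which fixes the CD4 fate, at 0.0769 and 12.7 CPM. Of the 16 naive genes only 1 was higher and 1 lower, with a median of -0.01, so both subsets held that programme at like levels.

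Genes of the naive and central memory programme had lower values in IgAN T cells than in Control T cells. Of 16 genes of that list, all measured, 15 had lower values in IgAN and 1 higher, with a median log2 difference (IgAN minus Control, 1 CPM added) of -0.53, where the median over all 9659 measured genes was 0.08. On plates with at least 5 T cells the list's median, relative to the Control sum, was -1.12 to -0.52 in IgAN and -0.51 to 0.28 in Control, so the plates did not overlap but the nearest pair, plates 313 and 317, was all but level. No gene of the list met the size rule, which asks for a 2-fold difference in the sums and for every such plate of 1 treatment to lie beyond every such plate of the other. In the narrowed set the median was -0.57.

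Ccr7, the receptor that brings T cells into lymph nodes (chr11:99144196-99155077, minus strand), was the most abundant gene of the list. On the IgAN plates it was at 1638 (313), 721 (315), 2471 (316), 1730 (318), 1224 (322) and 598 CPM (325). On the Control plates it was at 3083 (314), 1853 (317), 2708 (321) and 2625 CPM (326). Plate 316, with 3 T cells, lay within the Control range, and the 4 IgAN plates with at least 5 T cells lay below every Control plate. In the sums Ccr7 was at 1324 CPM in IgAN and 2635 CPM in Control, a log2 difference of -0.99. The difference was also one of cells: 21 of 38 IgAN cells (55.3%, 38.3 to 71.4) and 72 of 84 Control cells (85.7%, 76.4 to 92.4) reached 20 CPM, with medians of 229 and 3338 CPM. With every cell thinned to 50000 reads the shares were 60.5% and 90.5%. Ccr7 also reached 20 CPM in 87.6% of B cells, 8.99% of NK cells and 9.05% of other cells, and B cell marker genes summed to 435 CPM in IgAN T cells and 527 CPM in Control T cells. Their part in the Ccr7 level was not tested.

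Tcf7, which holds T cells in a self-renewing state (chr11:52252371-52283014, minus strand), followed the same order. It was at 611 (313), 1254 (315), 1113 (316), 695 (318), 432 (322) and 531 CPM (325) on the IgAN plates and at 1013 (314), 1040 (317), 992 (321) and 1201 CPM (326) on the Control plates. The 2 IgAN plates with 3 T cells each were within or above the Control range, and the other 4 were below it. The sums were 598 and 1049 CPM (log2 difference -0.81). For both Ccr7 and Tcf7 the plates of at least 5 T cells did not overlap between treatments, where 3.77% of all measured genes were lower in IgAN without overlap and 1.08% higher.

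Most other genes of the list had lower values by smaller margins or with overlapping plates. S1pr1, the receptor by which T cells leave tissue and lymph nodes, was at 830 and 1454 CPM (-0.81), and Klf2, a factor that maintains S1pr1, at 513 and 805 CPM (-0.65). Lef1, the partner of Tcf7, was at 650 and 888 CPM (-0.45). Igfbp4 was at 290 and 589 CPM (-1.02), and Bach2, a repressor of effector genes, at 17.9 and 85.6 CPM (-2.20). Il7r was nearly level at 662 and 706 CPM (-0.09), as was Ms4a6b at 984 and 995 CPM (-0.02), and Ms4a4b was the gene with the higher value, at 813 and 804 CPM (0.02). The lower values were thus not shared evenly over the list.

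**Figure D3:**
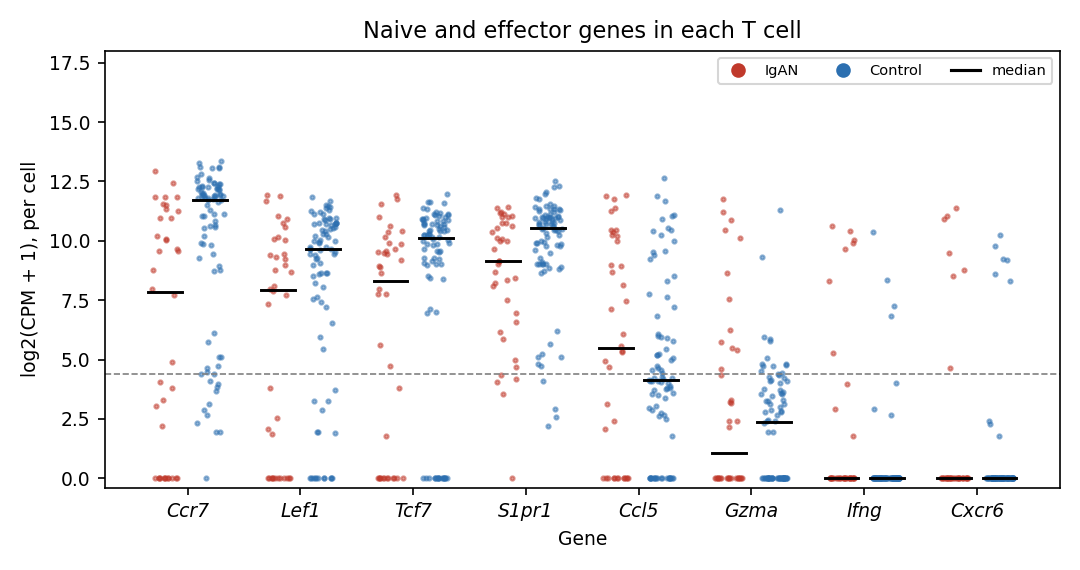
Level of 8 genes in each T cell as log2(CPM + 1), IgAN in red and Control in blue, with the median of each treatment as a black bar and a dashed line at 20 CPM. For Ccr7 most Control cells lie in a high band (median 3338 CPM) and IgAN cells are divided between that band and 0 (median 229 CPM), while Gzma, Ifng and Cxcr6 are high in a few cells of either treatment.

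By plate, cells with Ccr7 at 20 CPM or more numbered 7 of 9 (313), 3 of 3 (315), 1 of 3 (316), 2 of 5 (318), 6 of 10 (322) and 2 of 8 (325) in IgAN, and 20 of 20 (314), 7 of 10 (317), 30 of 35 (321) and 15 of 19 (326) in Control. Plates with at least 5 T cells ranged from 25.0% to 77.8% in IgAN and from 70.0% to 100% in Control, so plates 313 and 317 overlapped. In the narrowed set the shares were 63.3% and 86.1%.

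Within CD8 cells Ccr7 reached 20 CPM in 8 of 13 IgAN cells (61.5%, 31.6 to 86.1) and 36 of 37 Control cells (97.3%, 85.8 to 99.9), with summed levels of 1455 and 3392 CPM. In the narrowed set it did so in 8 of 11 (72.7%) and 36 of 37, with 1536 and 3392 CPM. Within CD4 cells it reached 20 CPM in 9 of 12 (75.0%) and 19 of 25 (76.0%). Whether the treatments differed more in one subset than in the other was not tested, since each treatment is 1 sample. Tcf7 was at 440 and 1113 CPM in the CD8 cells, and Il7r reached 20 CPM in 6 of 13 and 29 of 37. Over the naive list 15 of 16 genes had lower values in IgAN CD8 cells, with a median of -0.70 beside 0.07 for all genes measured there. In CD4 cells 11 of 16 were lower, with a median of -0.22 beside -0.17 for all genes. The CD4 values thus lay close to their background. Of the 37 Control CD8 cells 1 was on plate 326, so these values come mainly from plates 314 and 321.

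Effector genes had higher summed values in IgAN T cells, but in few cells and not on every plate. Of 26 measured genes 17 had higher values and 9 lower, with a median log2 difference of 0.57 in the sums, none met the size rule (0.683% of all measured genes did so as higher in IgAN), and the narrowed set gave 0.37. By plate the list did not separate the treatments: the 4 IgAN plates with at least 5 T cells had medians of -0.02, -0.35, 0.46 and -0.12 relative to the Control sum, and the Control plates had 0.30, 0.33, 0.10 and -3.0. The lowest, plate 326, held 1 CD8 cell among 19 T cells, and IgAN plate 318, at -0.35, held 1 among 5. The part of the subsets in these plate values was not tested. In the sums other lists of differentiated cells were on the same side: inhibitory receptors had a median of 0.74 (10 of 11 with higher values) and tissue-resident genes 0.27 (8 of 11). No gene of either list passed the size rule, and the plates overlapped. By plate the inhibitory receptors were at -1.39 (313), -2.31 (318), 0.74 (322) and -2.51 (325) in IgAN and at -1.76 to 0.48 in Control. The tissue-resident genes were at 0.33, -0.57, 0.83 and -2.12 on the same IgAN plates and at -0.35 to 0.43 in Control. The higher medians of the sums were thus not shared by every IgAN plate. Plates 318 and 325 held 5 and 8 T cells, and a sparse gene with no read on such a plate takes a low value. The part of cell number in the plate medians was not tested.

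The granule protease Gzma was at 274 CPM in IgAN and 63.5 CPM in Control (log2 difference 2.09), with plates of at least 5 T cells at 102 to 1074 and 6.39 to 157 CPM, which overlap. A single cell of plate 321 gave 74.9% of its Control reads, so the difference was 4.98 without that plate, and the lowest value on leaving out a plate was 1.55 (318). It reached 20 CPM in 12 of 38 IgAN and 14 of 84 Control T cells (31.6% and 16.7%), where 97.8% of NK cells and 15.5% of other cells also did, so the Control share was near that of cells that should lack it. In the narrowed set it was at 234 and 65.4 CPM (1.82), with 8 of 30 and 13 of 79 cells at 20 CPM. Gzmb was at 130 and 88.8 CPM, and Gzmk, a protease of memory cells, at 88.2 and 20.1 CPM from 4 and 3 cells. Prf1, the pore protein perforin, was at 64.5 and 72.6 CPM. The values of the proteases and of perforin thus differed in direction.

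The cytokine Ifng was at 132 and 24.2 CPM (2.40), with a read in 10 IgAN and 7 Control cells and a difference of 1.99 in the narrowed set, and Tnf was lower, at 18.1 and 117 CPM (-2.63). The chemokines Ccl3 (73.7 and 11.9 CPM) and Ccl4 (162 and 44.0 CPM) had higher values in IgAN. In the narrowed set Ccl3 was at 16.9 and 5.04 CPM, and its log2 difference of 2.53 became 1.57, while that of Ccl4 went from 1.85 to 0.19. Without plate 325 the differences were 0.72 for Ccl3 and 0.35 for Ccl4, so both rested largely on that plate. Klrg1 was at 150 and 18.0 CPM (2.99) and Ly6c2, a surface protein of memory CD8 cells, at 8.36 and 329 CPM (-5.14) with overlapping plates. The list held differences of several-fold in either direction. Cxcr6, a chemokine receptor of tissue-resident cells, was at 290 and 76.6 CPM with a read in 7 and 9 cells, and the residency factor Runx3 at 169 and 57.2 CPM. Among the inhibitory receptors Pdcd1 was at 262 and 156 CPM and Lag3 at 60.0 and 9.64 CPM.

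A cell with Gzma, Gzmb, Gzmk or Ifng at 20 CPM or more was found 15 times among 38 in IgAN (39.5%, 24.0 to 56.6) and 22 times among 84 in Control (26.2%, 17.2 to 36.9). The narrowed set gave 33.3% and 26.6%. The 3 linked wells of plate 325 below the receptor limits were among the IgAN cells counted. The 4 genes were chosen after seeing the data, and each had a higher summed value in IgAN. Prf1, Tnf and Ly6c2, of the same list and with lower values in IgAN, were not counted. The shares thus restate that choice in part. Cells with Ccr7 and none of these 4 genes numbered 15 among 38 (39.5%) in IgAN and 55 among 84 (65.5%) in Control.

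**Figure D4:**
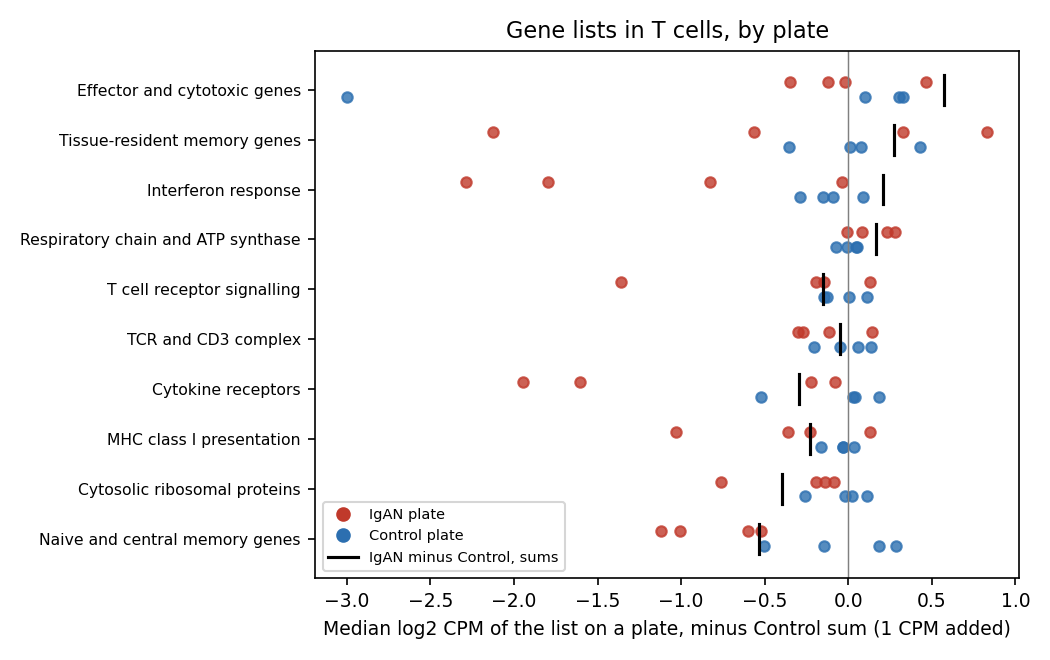
Median log2 level of 10 gene lists on each plate with at least 5 T cells, minus the Control sum (1 CPM added), with IgAN plates in red, Control plates in blue and the IgAN minus Control difference of the sums as a black bar. The naive and central memory list is the one with IgAN plates (-1.12 to -0.52) all below Control plates (-0.51 to 0.28), and in the effector and interferon lists the bar lies above every IgAN plate. A list with sparse genes can have a low median on a plate of few T cells.

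Receptor genes that the gate did not use, and the list of signalling genes, were near level between the treatments in the sums. Over 7 genes of the receptor complex the median log2 difference was -0.05. Of these, 3 are the CD3 genes that chose the cells in both treatments, so that median is only a description. Trac was at 819 CPM in IgAN and 913 CPM in Control (-0.16), and Cd247, the chain that carries most of the signalling motifs, at 671 and 547 CPM (0.29). Over 25 signalling genes the median was -0.15, with 9 higher and 16 lower values, and Lat, the scaffold of the receptor signal, was at 1077 and 1020 CPM (0.08). Ptpn6, a phosphatase that dampens receptor signalling, was the gene of the list that met the size rule, 1 of 25, where 2.96% of all measured genes did so as lower in IgAN. It was at 184 CPM in IgAN and 481 CPM in Control (-1.39), with plates at 2.79 to 248 and 419 to 562 CPM. Zap70, the kinase recruited to CD3, was lower by less (301 and 418 CPM, -0.48) with plates that did not overlap.

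Helper and regulatory genes were also near level as a list in the sums (median 0.16 over 14 measured genes), but not on every plate. The list's median was 0.11 (313), -4.63 (318), 0.52 (322) and -3.41 (325) in IgAN and -0.38 to 0.61 in Control. Plates 318 and 325 held 5 and 8 T cells, where sparse genes can have no read. The part of cell number in these medians was not tested. Foxp3 was at 208 and 187 CPM and reached 20 CPM in 6 IgAN and 11 Control cells, up to 3114 CPM in a CD4 cell of plate 326. It also reached 20 CPM in 7.87% of NK cells and 6.95% of other cells, against 13.9% of T cells, so single cells with low Foxp3 cannot be called regulatory. Ctla4, an inhibitory receptor of regulatory and activated cells, was cleaner, found in 37 T cells, no NK cell and 0.0724% of other cells. Its level was 417 and 379 CPM. Icos, a costimulatory receptor, was at 516 and 415 CPM. Cxcr5, which guides T cells to B cell follicles, met the size rule, at 1.16 CPM in IgAN and 42.8 CPM in Control (-4.34). It had a read in 7 of 38 and 44 of 84 cells, with plates of at most 2.79 and at least 15.0 CPM.

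Interferon response genes did not move together. Of 30 measured genes 15 had higher and 15 lower values, and the median was 0.21 in the sums but -2.29 to -0.04 on the 4 IgAN plates. Those plates held 5 to 10 T cells each, and the part of genes without a read in the plate medians was not tested. Usp18, a protease that removes ISG15 and restrains the receptor, was higher at 50.8 and 0.661 CPM (log2 difference 4.96), with a read in 16 IgAN and 12 Control cells and plates of 1.86 to 62.9 and 0.448 to 0.887 CPM. Of its 480 IgAN reads, 2 cells (plates 313 and 322) gave 77.9%, and the other IgAN cells were at 11.9 CPM. The signal transducer Stat2 (6.77 and 59.5 CPM, -2.96) and the response gene Rtp4 (8.57 and 47.3 CPM, -2.33) were lower, and each of these genes met the size rule. Ribosomal protein genes had lower values in IgAN in 35 of 35 measured members, with a median of -0.40, none past the size rule and overlapping plates. MHC class I genes were lower in 17 of 19 (median -0.23) and respiratory chain genes higher in 22 of 30 (0.16). Under TMM scaling the median of all genes went from 0.08 to -0.14. With it the interferon (-0.21), helper (-0.06) and respiratory chain (-0.05) medians changed sign, and the naive (-0.74), ribosomal and effector (0.37) medians did not.

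Across all genes, more met the size rule as lower than as higher in IgAN T cells. Of 9659 measured genes 66 (0.683%) were higher and 286 (2.96%) lower, and these counts moved with single plates. Without plate 313 they were 274 and 656, because fewer plates then had to lie apart, and the narrowed set, in which 2 IgAN plates kept 5 cells, gave 521 (5.58%) and 501 (5.36%) of 9343, so the balance of higher and lower genes did not hold there. Of the 286 lower genes 258 met the rule in the narrowed set too, and of the 66 higher genes 52. The narrowed set is a part of the same cells, with fewer plates that had to lie apart, so this overlap is not a separate check. A read in at most 10 T cells was the case for 22 of the lower and 4 of the higher genes. The IgAN plates that the rule compared held 5 to 10 T cells each, and the Control plates 10 to 35. A sparse gene can have no read on a plate of few T cells, which favours low values on the IgAN plates. The part of cell number in the balance of lower and higher genes was not tested.

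The largest differences upward were of genes near 0 in Control. Epcam, an epithelial adhesion molecule, was at 59.3 CPM in IgAN and 0.441 CPM in Control (log2 difference 5.39) with a read in 6 and 5 cells. It was highest on plate 325 (231 CPM), and distal tubule markers summed to 476 and 75.2 CPM in the T cells of IgAN and Control. After Usp18 came H19, an imprinted RNA with 201 reads in 12 IgAN cells and none in Control, at least 129-fold higher against a floor of 3 reads over the Control cells, which did not meet the rule in the narrowed set. Pdgfb, a growth factor, was at 38.2 and 0.882 CPM (4.38). Tanc2, Gdap10, Lonrf1, Stard9, Lrrc57, Stap2 and Yap1 were also among the 12 largest, at 3.27 to 4.09. Of these, Stard9 (2.17), Stap2 (2.18) and Yap1 (2.17) did not meet the rule in the narrowed set. On leaving out 1 plate the lowest differences were 0.79 for Stap2, 0.94 for Lonrf1 and 1.23 for Yap1. Of the endothelial markers Eng met the rule (266 and 71.4 CPM), and 10 of 11 measured ones had higher values in IgAN. Their sum was 1244 CPM in IgAN T cells (549 to 3432 by plate) and 628 CPM in Control T cells (469 to 1065). The part of RNA from other cells in these differences was not tested.

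Downward, the 12 largest differences included Ncmap, Reck, Trim12a, Tsc1, B3galt4, Plxnc1, Abcb1a, Zhx2, Acvr1b, Ercc2 and Wbscr27, at -5.88 to -4.94. Abcb1a, a drug efflux pump of T cells, had no read in IgAN and 34.3 CPM in Control, with reads in 17 of 84 cells, at least 108-fold lower in IgAN against a floor of 3 reads. Plxnc1, a semaphorin receptor, also had no read in IgAN and 34.8 CPM in Control from 10 cells. Tsc1, which restrains mTOR and keeps T cells quiescent, was at 0.423 and 62.4 CPM (-5.48), with reads in 4 of 38 and 16 of 84 cells. Trim12a shares sequence with near-identical neighbours, so its counts are uncertain. All 12 were seen in 9 to 24 Control cells and in at most 6 IgAN cells, so each value rests on a few cells.

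Against NK cells of the same plates, T cells were set apart by receptor and naive genes. NK cells were taken as those with 100 CPM of Ncr1 plus Klrb1c and less than 150 CPM of CD3 genes, 58 in IgAN and 31 in Control. Of 9914 measured genes 53 (0.535%) were at least 2-fold higher in T cells with the same sign in both treatments and on all 10 plates, and 68 (0.686%) lower. The genes of either gate were not counted. Cd6, a receptor that adjusts T cell activation, led at 619 CPM in T cells and 0.254 CPM in NK cells, followed by Cd8b1 (774 and 0.862 CPM) and Pik3ip1, an inhibitor of PI3K signalling (263 and 0.812 CPM). Ccr7 (2186 and 37.9 CPM), Tcf7 (895 and 16.2 CPM) and Trac (881 and 21.1 CPM) were next with Rgs10. Il7r was at 691 and 0.507 CPM but did not hold its sign on every plate.

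Of the 16 naive genes 6 met that rule as higher in T cells (Ccr7, Tcf7, Lef1, S1pr1, Igfbp4 and Ms4a6b), with a median log2 difference of 2.77 beside 0.01 for all measured genes. Of 25 signalling genes 5 did, among them Lat, Cd6, Cd28 and Rhoh. Of 26 effector genes 12 were lower in T cells and none higher, with a median of -2.82. Prf1 was at 69.8 CPM in T cells and 2406 CPM in NK cells, Gzma at 136 and 3233 CPM, and Tbx21 at 110 and 1117 CPM. The receptors Klre1 (1.85 and 692 CPM), Klrb1a, Klrb1b and Klra4, which NK cells use to sense MHC and related ligands, were also lower. T cells of this fraction thus held less of the cytotoxic programme than the NK cells beside them. Lck (1340 and 938 CPM) and Cd247 (589 and 433 CPM) were shared, with log2 differences of 0.51 and 0.44.

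Beta chain segments could be read in most T cells and gave each cell 1 identity. A Trbv gene was called, with at least 20 CPM and more than 50% of all Trbv reads of the cell, in 101 of 122 T cells, and in the median cell it took 100% of those reads. No NK cell and no B cell had a call, and 29 of 2763 other cells did (1.05%). Calls were made in 26 of 38 IgAN T cells (68.4%) and 75 of 84 Control T cells (89.3%). In all 17 Trbv genes were called, Trbv1 in 17 cells, Trbv3 in 16 and Trbv2 in 15. A call by Trbv gene does not define a clone, since the joined CDR3 was not read.

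IgAN calls were gathered on Trbv3, Trbv2 and Trbv1, whose ends are printed above. Trbv3 was called in 9 of 26 IgAN cells (34.6%, 17.2 to 55.7) and 7 of 75 Control cells (9.33%, 3.84 to 18.3). By plate it was 4 of 8 (313), 2 of 7 (322) and 3 of 5 (325) and absent from the 6 calls of plates 315, 316 and 318, and in Control 1 of 18 (314), 1 of 10 (317), 3 of 30 (321) and 2 of 17 (326). Plates of IgAN thus lay on both sides of Control. Trbv2 was called in 7 IgAN cells (26.9%) and 8 Control cells (10.7%), and Trbv1 in 6 (23.1%) and 11 (14.7%). Wells H22 and H23 of plate 325 both used Trbv3 and O15 and O16 both used Trbv2, and with 1 well of each linked set Trbv3 was in 33.3% and Trbv2 in 25.0% of IgAN calls. The other calls in IgAN were 1 each of Trbv4, Trbv5, Trbv13-2 and Trbv31, against 7, 8, 7 and 2 in Control. The remaining 10 genes had no call in IgAN, where the exact interval of 0 among 26 calls reaches 13.2% for each.

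**Figure D5:**
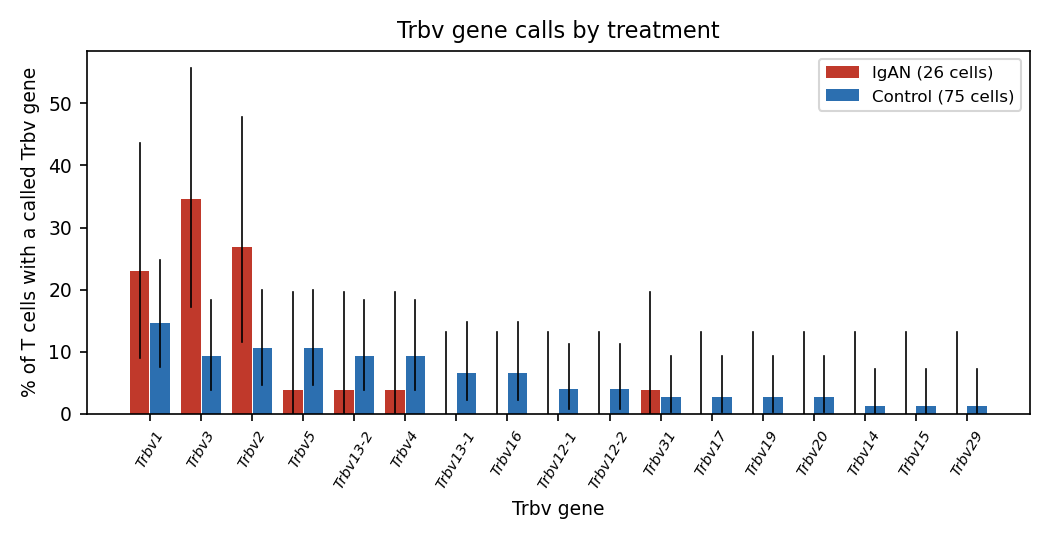
Share of T cells with a called Trbv gene that used each gene, for 26 IgAN cells (red) and 75 Control cells (blue), with exact binomial 95% intervals as lines. IgAN bars are highest at Trbv3 (34.6%), Trbv2 (26.9%) and Trbv1 (23.1%), and the intervals of the treatments overlap at each of these genes.

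Alpha segments were called in 83 cells, where the leading Trav gene took a median of 74.5% of Trav reads. Both chains were called in 77 cells, which held 68 distinct pairs of Trbv and Trav genes. Of these pairs 7 were seen in more than 1 cell, and none in more than 3 cells. No pair of segments dominated the T cells of either treatment.

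Gamma and delta receptor reads were found in few cells, and some of these also had a beta chain. Of the 13 genes of the gamma-delta and innate-like list 7 were measured. All 7 had higher values in IgAN (median 3.49), from a few cells. Trdc was at 98.7 and 27.5 CPM with a read in 6 and 5 cells. Tcrg-C4 was at 84.9 and 2.15 CPM with a read in 4 and 1. A gene was measured if it passed the limits in 1 treatment, and Trdc and Tcrg-C4 passed in IgAN only. For such genes the filter itself favours higher values in IgAN. The count and the median therefore cannot show a direction for the list. Of the 6 cells with gamma constant genes at 20 CPM, 3 had a called Trbv gene, and such cells gave 81.4% of the Tcrg-C4 reads in IgAN. In Control, 63.2% of the Trdc reads were in cells with a called Trbv gene, up to 1357 CPM in 1 of them. The other 3 cells had no Trbv call. Well H7 of plate 313 held Tcrg-V4 at 333 CPM and Trdc at 1212 CPM, and well G20 of plate 322 held Tcrg-V6 at 729 CPM and Trdv4 at 596 CPM. Both also held the cytokine gene Il17a (508 and 498 CPM) and the scavenger receptor Cd163l1 (3888 and 2206 CPM). They carried Cxcr6 at 2105 and 2650 CPM, and these 2 cells gave 62.6% of the Cxcr6 reads of IgAN T cells. Without them Cxcr6 was at 117 CPM in IgAN, beside 76.6 CPM in Control. The Control cell of this kind, N21 of plate 321, held Trdc at 973 CPM with Tcf7 at 2041 and Lef1 at 1660 CPM. Single cells such as these do not give a share of the population: 2 of 38 and 1 of 84.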

How the data were processed

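Reads of single cells sorted into plates were deposited as a table of counts per gene, 46517 genes by 3143 cells. Per the submitters' processing notes the authors used TopHat2 2.1.1, SAMtools 0.1.18 and featureCounts of Subread 1.4.6-p5 with GRCm38 (mm10). The sources used here do not give the annotation, strand setting or cell filters. Without a strand setting, reads of overlapping genes on opposite strands cannot be told apart, and the counting may have split or dropped reads of near-identical genes such as Trbc1 and Trbc2.

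From the deposited counts, CPM was computed per cell, and reads of T cells were summed per treatment and per plate. A gene was measured with at least 10 CPM and a read in 10% of the T cells of 1 treatment. The size rule required a log2 difference of at least 1 in size (1 CPM added) and no overlap of plates with at least 5 T cells. Genes named are the markers, members of the gene lists, the 12 largest differences in each direction among those that met the rule (without unnamed gene models and markers of other cells), and the variable genes called in most cells. The T cell gate, lists and rules were chosen with earlier results of these data known. The narrowed set and the linked wells were chosen after seeing the data, as were the 20 CPM counts of Ccr7 by plate. The counts of cells with Gzma, Gzmb, Gzmk or Ifng and the comparison of Trbv3 were also chosen then. Values of some genes chosen by these rules are not reported here. The interval level was 95%.

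TMM factors (edgeR 4.0.16) and median-of-ratios size factors (DESeq2 1.42.0) served only as alternative scalings, with R 4.3.3. Other steps used Python 3.11.15, numpy 2.4.6, pandas 2.3.3 and scipy 1.17.1. On simulated data with known changes the size rule was tested first. Gene positions are from GENCODE vM21 (GRCm38), which matched 42052 of the 46517 names, and promoters from RefSeq (GRCm38.p6), which held the 3 CD3 genes.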

Additional observations from a re-analysis of the deposited data

Results flagged for a closer look

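The plate values within a treatment were read as 46 series, each of 4 plates except the IgAN T cell share, which had 6. Of these, 4 held a plate far from the other 3, where chance flags about 1 in 20 groups. CD4 cells were 12.5% of T cells on IgAN plate 325 and 40.0% to 44.4% on the other IgAN plates with at least 5 T cells. On the same plate the median of the co-receptor and lineage list was -2.69 relative to the Control sum, and on the others -0.43 to -0.03. Plate 325 held 8 T cells, of which 7 were in linked wells. The ribosomal protein list was at -0.76 on IgAN plate 322 and -0.19 to -0.08 on the others. The effector list was at -3.0 on Control plate 326 and 0.10 to 0.33 on the others, and 13 of the 19 T cells of that plate were CD4.

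Cells outside the gate also held T cell receptor genes. CD3 genes at the level of a T cell were found in 23 cells that also held at least 50 CPM of Ncr1, 8 from IgAN and 15 from Control. Their summed Cd3g was 527 CPM, with 110 CPM of Cd3d and 25.0 CPM of Cd3e, and Trac was at 14.6 CPM. In 9 of them Cd3g was the only CD3 gene with a read, and 1 had a called Trbv gene. A Trbv gene was called in 29 cells that passed none of the T, NK and B cell gates, 8 from IgAN and 21 from Control. Of these, 6 had Trac at 20 CPM and 5 had CD3 genes at the level of a T cell, and the median sum of CD3 genes was 5.25 CPM.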

How the results depend on the processing

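Of the shares, counts and list medians that answer a comparison, 223 values under other settings stayed close and 30 moved. The naive and effector medians kept their sign, as did 34 named genes in all 714 values computed, but 10 of the 19 list medians changed sign under at least 1 setting. Most of the 34 genes had been chosen because they met the size rule, which already asks for plates that do not overlap. Their kept signs were therefore largely set by that choice. With Ptprc cells as denominator the T cell share was 7.17% in IgAN and 19.3% in Control. Leaving out 1 plate gave 4.68% to 7.31% for the T cell share in Control, and 37.5% to 55.4% CD8 and 18.5% to 42.9% CD4 among its T cells, the extremes coming from plates 321 and 326. Ccr7 was at 20 CPM in 94.7% to 100% of Control CD8 cells and in 44.4% to 72.7% of IgAN CD8 cells. Genes higher in IgAN were 66 and became 69 to 274 without 1 plate, 108 with no filter on low values, 34 with a 50 CPM filter, 175 with a CD3 limit of 300 CPM and 1355 where plates needed 10 T cells. Genes lower in IgAN were 286 and became 298 to 656, 139 under the 50 CPM filter and 878 where plates needed 10 T cells. Fewer plates then have to lie apart, which makes the rule easier to meet. With plates of at least 10 T cells higher genes outnumbered lower ones, the opposite of the counts in the report. The narrowed set, chosen after seeing the data, gave 521 and 501, again more higher than lower, and 21 higher with plates of at least 3 T cells. Genes higher in T than NK cells were 56 to 91 without 1 plate and lower ones 71 to 117, most without plates 315 and 325. The naive list's median ran from -0.73 to -0.38 without 1 plate. No paired analysis was possible because each treatment is 1 sample, and replicate numbers only count its cells in accession order and pair nothing. With 38 IgAN T cells, sparse genes and small shares are the least certain.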
